A study of Mus musculus with 12 samples.

Results

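Border-associated macrophages are the resident macrophages of the meninges, perivascular spaces and choroid plexus. They take up material from the cerebrospinal fluid and vessel walls, and share with microglia the receptors Csf1r and Cx3cr1. They are told apart from microglia mainly by scavenger and endocytic receptors at their surface, and are usually described as carrying more CD45. The 8 marker genes described here were taken by symbol from the 55401 gene identifiers of the count files. They are the receptors Mrc1, Lyve1, Cd163, Stab1 and Folr2, the chemokine Pf4, the enzyme Cbr2 and the transglutaminase subunit F13a1. All 8 passed the filter on low counts that left 16451 genes to be tested.

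The cells were CD45int CD11b+ cells sorted as microglia from mouse brain, in 12 RNA-seq libraries with 3 replicates in each of 4 groups. WT mice were CX3CR1wt/wt:HDAC3loxp/loxp, and miKO mice were CX3CR1CreER/wt:HDAC3loxp/loxp. All 4 groups thus carried the floxed Hdac3 alleles, and the miKO mice alone also had CreER in place of a Cx3cr1 allele. All were males given tamoxifen for 5 days at 6 to 8 weeks of age, with surgery at least 1 month later. Cx3cr1 drives CreER in border-associated macrophages as well as in microglia, so the deletion is not limited to either cell type by the driver. tFCI, transient focal cerebral ischemia, was a 60 min occlusion of the middle cerebral artery with cells taken on day 3, and Sham mice had the exposure of the artery without occlusion. Each replicate combined 3 to 4 hemispheres. By the labels, replicate 1 of each group was in batch 1 and replicates 2 and 3 in batch 2.

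The libraries held 7697864 to 9452222 counts on genes. The 15 microglia markers summed to between 19281 and 75115 CPM (counts scaled to a common library size, with TMM) in every library, so the labelled cell type was borne out by its markers. Hdac3, the targeted gene, lay at 20.9 to 36.0 CPM in the 6 miKO libraries and at 35.0 to 54.0 CPM in the 6 WT libraries, with no overlap between genotypes of the same surgery. In 3 groups replicates 2 and 3, of the same batch, had the closest counts by a chi-square over genes. In miKO-Sham it was replicates 1 and 2, of different batches, at 2.82 per degree of freedom against 3.65 to 76.6 for the other 11 pairs of replicates. The deposited names of these replicates share a sample code, and it is not known whether they came from separate cells. They differed by more than sampling noise and were kept as 2 libraries. If they were 1 sample, miKO-Sham would have 2 independent samples, and values without replicate 2 apply. miKO-Sham replicate 3 stood apart from both, and 6 of the 8 marker genes were among the 273 of 16451 genes with the largest excess in it, with Stab1 and Folr2 outside them. Results on the 8 genes that rest on miKO-Sham are therefore given with and without it, and those on other lists where a count moved by over 1.5 times or the call of a named gene changed. As these genes helped to set replicate 3 apart, calls gained without it are no separate support for a difference.

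The genes lie on 7 chromosomes of GRCm38, only Lyve1 and Folr2 sharing one, and all 8 are protein-coding. Mrc1 spans 2:14229392-14332057 on the + strand and Cd163 6:124304656-124330527 on the + strand. Lyve1 spans 7:110850607-110863239 and Folr2 7:101839988-101857194, both on the - strand. Pf4 is the shortest, at 5:90772435-90773383 on the + strand, with 721 exonic bases, and Stab1 the one with the most, 10288 exonic bases in 58 blocks at 14:31139013-31168641 on the - strand. Cbr2 lies at 11:120729489-120732114 and F13a1 at 13:36867178-37050244, both on the - strand. The library kit does not keep strand. The exons of Folr2 share 975 of 1546 bases with the antisense gene Gm10602, so that reads there cannot be assigned to either and the level of Folr2 is uncertain to that extent. F13a1 shares 74 bases with the antisense gene Gm30489 and Stab1 112 bases with Nt5dc2, and the other 5 members share none.

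The 250 bases upstream of the start are shown for the members whose levels set the patterns described: Mrc1 and Cd163, which moved together, Pf4, which went its own way, and Stab1 and Folr2, which were higher in miKO-Sham. RefSeq (GRCm38.p6) held a window for 7 of the 8 members, and Lyve1 had no entry. The letters GAGGAAG, a core of sites of the macrophage factor PU.1, were searched on both strands and are in capitals (CTTCCTC on the printed strand where the match is on the other).
Mrc1, chr2:14229164-14229413, + strand: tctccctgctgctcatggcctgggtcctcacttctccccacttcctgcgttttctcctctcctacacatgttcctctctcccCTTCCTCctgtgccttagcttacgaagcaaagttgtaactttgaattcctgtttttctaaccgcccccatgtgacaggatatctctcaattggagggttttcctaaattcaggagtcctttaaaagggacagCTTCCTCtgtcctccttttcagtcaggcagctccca
Cd163, chr6:124304401-124304650, + strand: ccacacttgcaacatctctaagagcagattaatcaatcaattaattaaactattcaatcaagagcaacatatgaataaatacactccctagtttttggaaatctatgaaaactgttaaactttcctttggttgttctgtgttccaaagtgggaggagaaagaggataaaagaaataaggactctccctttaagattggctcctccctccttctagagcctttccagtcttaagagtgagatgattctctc
Pf4, chr5:90772185-90772434, + strand: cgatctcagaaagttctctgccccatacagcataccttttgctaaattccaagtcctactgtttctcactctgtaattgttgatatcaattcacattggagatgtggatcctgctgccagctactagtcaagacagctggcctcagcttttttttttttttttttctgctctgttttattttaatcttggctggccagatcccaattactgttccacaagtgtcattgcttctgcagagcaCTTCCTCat
Stab1, chr14:31168642-31168891, - strand: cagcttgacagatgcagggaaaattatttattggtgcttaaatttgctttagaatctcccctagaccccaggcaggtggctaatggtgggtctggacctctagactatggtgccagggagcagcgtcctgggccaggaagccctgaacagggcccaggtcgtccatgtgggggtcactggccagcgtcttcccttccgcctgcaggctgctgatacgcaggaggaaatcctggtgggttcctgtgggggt
Folr2, chr7:101857191-101857440, - strand, the first of its 2 windows: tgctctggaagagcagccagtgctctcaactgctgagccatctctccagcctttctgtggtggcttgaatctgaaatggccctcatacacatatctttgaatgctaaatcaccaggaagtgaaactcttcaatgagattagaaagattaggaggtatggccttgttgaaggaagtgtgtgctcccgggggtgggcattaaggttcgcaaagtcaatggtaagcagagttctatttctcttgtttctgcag
Mrc1 held 2 matches, 168 and 36 bases upstream of the start, and Pf4 held 1, at 9 bases. Of the sequences not printed, Cbr2 had 1 match at 79 bases and the first window of F13a1 had 1 at 66 bases. Cd163, Stab1 and both windows of Folr2 had none. Over all 32851 promoter windows in the table, 10.6% held these letters. TGCTGAC, a core of MAF recognition sites, was found in none of the members' windows and in 3.81% of all windows. Mrc1 and Cd163, whose levels followed each other most closely of the printed members, thus differed in these letters, and a match is a description of the sequence only.

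Levels are compared between genes only per length, as RPKM (CPM per 1000 exonic bases). In WT-Sham, Stab1 was at 49.7 ± 6.72 RPKM (SD, n = 3 here and throughout), Pf4 at 36.0 ± 14.8, Cbr2 at 10.7 ± 2.21 and Mrc1 at 5.86 ± 0.80. Folr2 followed at 4.16 ± 0.69 RPKM, F13a1 at 2.99 ± 1.43, Lyve1 at 2.06 ± 0.62 and Cd163 at 1.20 ± 0.24. In this order the intervals of 1 SD overlapped between Stab1 and Pf4 and between each of the last 4 and its neighbor, and did not between Pf4 and Cbr2, Cbr2 and Mrc1, or Mrc1 and Folr2. Folr2 stood after Mrc1 in WT-Sham but next to Stab1 in miKO-Sham, at 25.8 ± 4.61 RPKM. In miKO-tFCI the mean of Pf4 was first, at 127 ± 39.3 RPKM, ahead of Stab1 at 111 ± 41.9, a difference within their spread. Lyve1 and Cd163 came last in all 4 groups. In CPM, Stab1 alone made up 60.8% to 94.8% of the sum of the 8 genes in a library, so their summed level mostly follows Stab1 and is not used below.

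Stab1 (stabilin-1) clears oxidized lipoproteins and matrix fragments, and Folr2 (folate receptor beta) takes up folate. Both were higher in miKO-Sham than in WT-Sham, and the other 6 members were not called there in either direction. Stab1 was at 583, 505 and 445 CPM in WT-Sham replicates 1 to 3, 1498, 1576 and 1068 in miKO-Sham, 528, 666 and 771 in WT-tFCI, and 661, 1491 and 1277 in miKO-tFCI. All 3 miKO-Sham libraries lay above all WT-Sham libraries, whereas miKO-tFCI replicate 1 lay among the WT-tFCI libraries. Folr2 was at 5.53, 7.62 and 6.16 CPM in WT-Sham, 37.5, 34.3 and 47.9 in miKO-Sham, 23.8, 36.1 and 34.0 in WT-tFCI, and 44.8, 93.3 and 85.3 in miKO-tFCI. WT-Sham was thus the low group for Folr2, with no library of any other group near it.

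**Figure D1:**
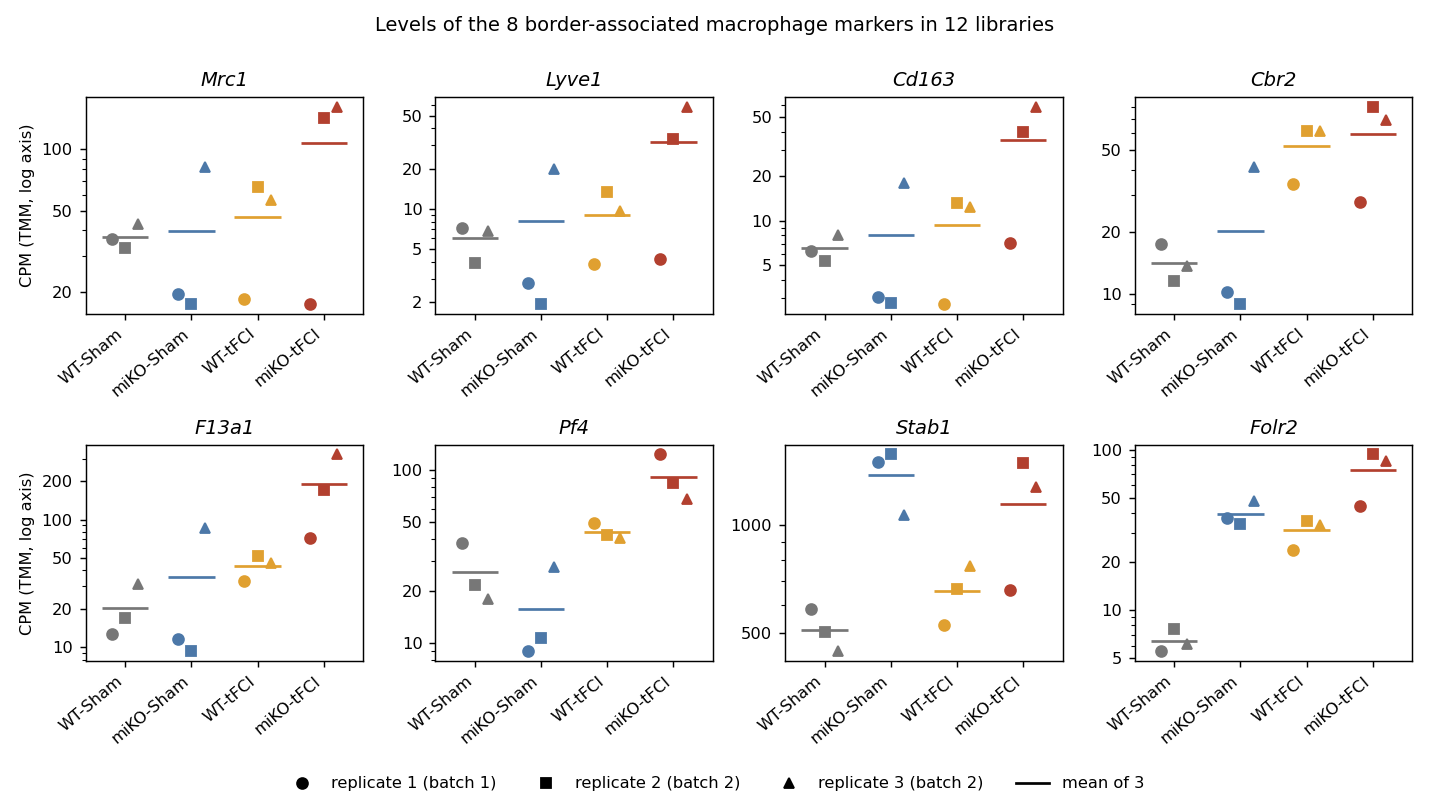
Level of each of the 8 genes in the 12 libraries (CPM after TMM scaling, log axis), with points for replicates, marker shape for the replicate number and its batch, and a line for the mean of 3. Folr2 and Stab1 separate miKO-Sham from WT-Sham in all replicates, whereas in the other 6 panels miKO-Sham replicate 3 lies above replicates 1 and 2. In every panel except Pf4, replicate 1 of both tFCI groups lies below replicates 2 and 3.

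In miKO-Sham vs. WT-Sham, 2 of the 8 genes were called higher and 0 lower, where 8.58% of all tested genes were called higher and 6.8% lower. A call needs an absolute log2 fold change above 0.58 and, by the quasi-likelihood test of edgeR, a p under 0.05 after Benjamini-Hochberg adjustment over the 16451 genes. The log2 fold change was 2.65 for Folr2 (SE 0.21, adjusted p = 7.93e-07) and 1.43 for Stab1 (SE 0.25, adjusted p = 0.000832). Within batch 1 and batch 2 the difference in log2 CPM was 2.71 and 2.52 for Folr2 and 1.36 and 1.45 for Stab1. Without miKO-Sham replicate 3, the log2 fold changes were 2.61 for Folr2 and 1.63 for Stab1, and without replicate 2 they were 2.84 (adjusted p = 4.57e-07) and 1.37 (adjusted p = 0.00325). On CPM these were also the 2 members whose groups did not overlap, against 17% of tested genes that were higher in every miKO-Sham library.

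For the other 6 genes the comparison of the Sham groups turned on 1 library. The log2 fold changes were between -0.63 (Pf4, adjusted p = 0.257) and 0.69 (F13a1, adjusted p = 0.432). Mrc1, the mannose receptor CD206 that binds glycans of microbes and of hormones, was at 36.4, 32.7 and 42.8 CPM in WT-Sham replicates 1 to 3, 19.6, 17.5 and 81.7 in miKO-Sham, 18.3, 65.1 and 56.7 in WT-tFCI, and 17.4, 143 and 162 in miKO-tFCI. miKO-Sham replicates 1 and 2 were below all WT-Sham libraries and replicate 3 above all of them.

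Lyve1, a hyaluronan receptor of lymphatic endothelium and perivascular macrophages, was at 7.21, 3.92 and 6.87 CPM in WT-Sham, 2.78, 1.94 and 19.7 in miKO-Sham, 3.83, 13.4 and 9.63 in WT-tFCI, and 4.23, 33.4 and 58.0 in miKO-tFCI. Cd163, which binds haemoglobin with haptoglobin, was at 6.25, 5.38 and 8.0 CPM in WT-Sham, 3.05, 2.77 and 18.1 in miKO-Sham, 2.75, 13.2 and 12.3 in WT-tFCI, and 7.02, 39.5 and 58.6 in miKO-tFCI. In both genes the order of the libraries within miKO-Sham and within both tFCI groups was close to that of Mrc1. These are low counts, 14 to 469 for Lyve1 and 20 to 474 for Cd163, so that counting error adds to the spread in the lowest libraries.

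Cbr2, a carbonyl reductase, was at 17.4, 11.7 and 13.6 CPM in WT-Sham, 10.3, 9.02 and 41.4 in miKO-Sham, 34.0, 61.6 and 61.2 in WT-tFCI, and 27.9, 80.2 and 69.3 in miKO-tFCI. F13a1, the A subunit of coagulation factor XIII that cross-links fibrin, was at 12.6, 16.8 and 31.0 CPM in WT-Sham, 11.7, 9.30 and 85.2 in miKO-Sham, 32.8, 51.4 and 45.9 in WT-tFCI, and 71.0, 170 and 323 in miKO-tFCI. For Cbr2 the 3 WT-tFCI libraries lay within the range of miKO-tFCI, and for F13a1 every miKO-tFCI library lay above every WT-tFCI library. Pf4, the chemokine CXCL4 stored in platelets and also made by macrophages, was at 38.1, 21.7 and 18.1 CPM in WT-Sham, 9.02, 10.8 and 27.7 in miKO-Sham, 49.4, 42.4 and 40.5 in WT-tFCI, and 123, 84.0 and 68.1 in miKO-tFCI. Pf4 differed from the other 5 genes in that replicate 1 was its highest library in WT-Sham and in both tFCI groups.

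miKO-Sham replicate 3 exceeded the mean CPM of replicates 1 and 2 by 8.36-fold for Lyve1, 8.13-fold for F13a1, 6.2-fold for Cd163, 4.41-fold for Mrc1, 4.29-fold for Cbr2 and 2.79-fold for Pf4. Folr2 was 1.34-fold and Stab1 0.694-fold of that mean. Ordered by the difference in log2 CPM, F13a1 was the 16th and Lyve1 the 18th of 16451 genes, and Cd163, Mrc1, Cbr2 and Pf4 were the 30th, 61st, 69th and 273rd. Of 27 other genes used as border-associated macrophage markers, 23 were above the other 2 libraries there, with a median of 1.13 on the log2 scale against -0.02 over all tested genes. Among them, Fcna, a ficolin of macrophages, was at 5.0, 7.21 and 60.1 CPM in miKO-Sham replicates 1 to 3, and the phosphatidylserine receptor Timd4 at 0.694, 0.139 and 6.15 CPM, on 5, 1 and 48 counts. Both were named after their values were seen. In the same library 14 of 15 microglia markers were higher, by a median of 0.32, as were 10 of 11 monocyte markers, by a median of 0.89, and 4 of 10 fibroblast and mural markers. In bulk libraries, fewer cells of a type and less RNA per cell cannot be told apart, and the part of other cells in these differences was not tested.

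**Figure D2:**
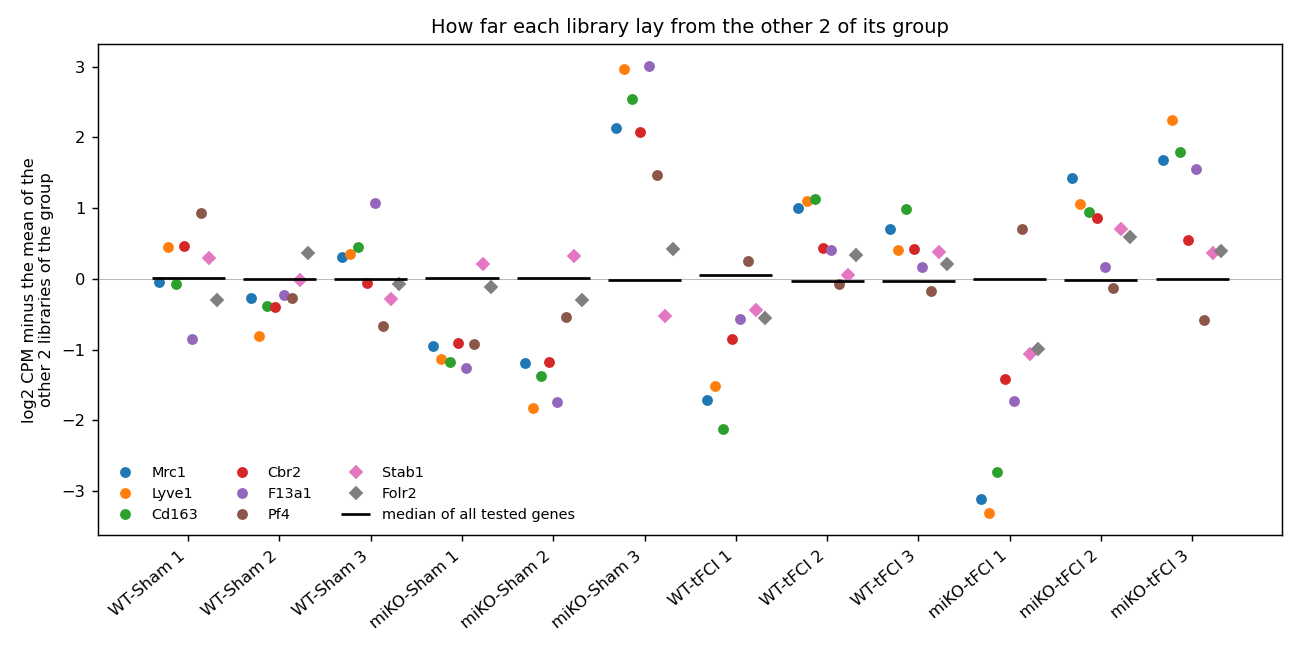
Difference in log2 CPM between each library and the mean of the other 2 libraries of its group, for the 8 genes (circles for 6, diamonds for Stab1 and Folr2) and for the median of all tested genes (black line). The medians of all tested genes stay near 0, whereas 6 genes are far above 0 in miKO-Sham replicate 3 and 5 of these far below 0 in miKO-tFCI replicate 1, where Pf4 is above 0.

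Without miKO-Sham replicate 3, the log2 fold change in miKO-Sham vs. WT-Sham was -0.79 for Mrc1, -1.20 for Lyve1, -0.95 for Cd163, -0.49 for Cbr2 and -0.69 for F13a1, where it had been -0.15, 0.13, 0.05, 0.37 and 0.69 with all 12 libraries. None of these passed the test. Pf4, at -1.39 (adjusted p = 0.00112, edgeR), was then called lower, as were 1109 of all 17283 genes tested in that fit. The 2 libraries then left in miKO-Sham were the pair whose counts lay closest of all pairs of replicates.

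tFCI in WT mice raised Folr2 and Cbr2, and the other 6 genes were not called. In WT-tFCI vs. WT-Sham, 2 of 8 genes were called higher and 0 lower, against 20.9% and 11.7% of all tested genes. Folr2 had a log2 fold change of 2.27 (SE 0.21, adjusted p = 1.13e-06) and Cbr2 of 1.77 (SE 0.43, adjusted p = 0.00489). F13a1 and Pf4 were at 1.17 (adjusted p = 0.103) and 0.80 (adjusted p = 0.074), although all WT-tFCI libraries lay above all WT-Sham libraries on CPM in both. With Folr2 and Cbr2 these made 4 of 8 genes without overlap, where 26.9% of all tested genes were higher in every WT-tFCI library. miKO-Sham replicate 3 is in neither group but enters the joint fit. Without it F13a1, at 1.14 (adjusted p = 0.0167), and Pf4, at 0.82 (adjusted p = 0.0043), were called as well. Over all tested genes 3620 of 17283 were then higher, against 3440 of 16451 with all 12 libraries.

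Mrc1, Lyve1 and Cd163 differed by 0.03, 0.29 and 0.24 on the log2 scale in the same comparison (SE 0.52, 0.72 and 0.57), with opposite signs in the batches. In batch 1, the difference in log2 CPM between WT-tFCI and WT-Sham was -0.98 for Mrc1, -0.87 for Lyve1 and -1.12 for Cd163. In batch 2 it was 0.70, 1.09 and 0.93. Batch 1 holds 1 library of each group, so the split rests on WT-tFCI replicate 1 and WT-Sham replicate 1. In WT-tFCI replicate 1, 10 of 11 monocyte markers and all 12 endothelial markers tested were above replicates 2 and 3, by medians of 1.68 and 1.42, and the part of such cells in its lower Mrc1, Lyve1 and Cd163 was not tested. WT-Sham replicate 1 also stood apart, with 10 of 11 neutrophil markers (median 3.5) and 10 of 11 monocyte markers (median 1.70) above replicates 2 and 3, and their part in the split was not tested either. Stab1 was at 0.33 (SE 0.24, adjusted p = 0.300), and its sign also differed, with -0.14 in batch 1 and 0.60 in batch 2.

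In miKO mice tFCI raised 6 of the 8 genes and lowered none, against 21.9% and 13.9% of all tested genes. The log2 fold changes in miKO-tFCI vs. miKO-Sham were 2.46 for Pf4 (SE 0.36, adjusted p = 8.57e-05), 2.41 for F13a1 (SE 0.54, adjusted p = 0.00237) and 1.98 for Cd163 (SE 0.54, adjusted p = 0.00889). Lyve1 followed at 1.79 (SE 0.68, adjusted p = 0.0452), Cbr2 at 1.52 (SE 0.42, adjusted p = 0.0094) and Folr2 at 0.84 (SE 0.18, adjusted p = 0.00187). Mrc1 was at 1.22 (SE 0.51, adjusted p = 0.067), and Stab1, the only member with a negative value, at -0.31 (SE 0.24, adjusted p = 0.324). The median over the 8 genes was 1.65, against 0.03 over all tested genes.

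The groups were less clearly apart than these values. On CPM, only Pf4 had all 3 miKO-tFCI libraries above all miKO-Sham libraries, where 26.5% of all tested genes did. After removal of the batch difference there were 5, Cd163, Pf4, Cbr2, F13a1 and Folr2, where 28.8% of all tested genes did. Without miKO-Sham replicate 3, the log2 fold changes rose to 3.83 for F13a1, 3.25 for Lyve1, 3.23 for Pf4, 3.05 for Cd163 and 2.44 for Cbr2, and Mrc1, at 1.98 (adjusted p = 0.017), was called as well. Over all tested genes 3551 of 17283 were higher in that fit. Folr2 was then at 0.89 (adjusted p = 0.00585) and Stab1 at -0.53 (adjusted p = 0.111). Without miKO-Sham replicate 2, 5 genes were called and Lyve1, at 1.22 (adjusted p = 0.131), was not. Over all tested genes 3880 of 17249 were then called higher. The call of Lyve1 was the least stable and was kept in 9 of 20 alternative analyses, with an adjusted p of 0.22 without miKO-tFCI replicate 3, whereas those of Pf4, F13a1, Cbr2 and Folr2 were kept in all 20.

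**Figure D3:**
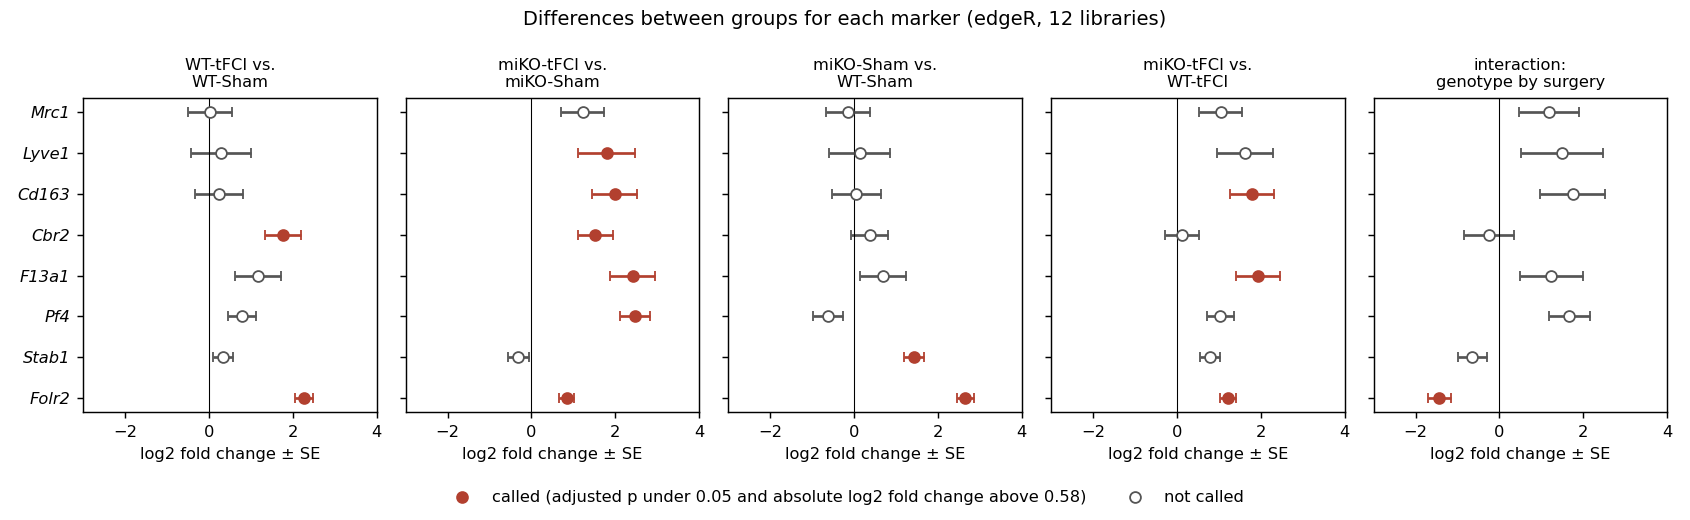
Log2 fold change of each gene with its standard error in the 4 comparisons between groups and in the interaction of genotype and surgery (edgeR over 12 libraries), filled where the gene was called. Folr2 is called in all 5 panels, at 2.27, 0.84, 2.65, 1.22 and -1.43 from left to right, and Stab1 only in miKO-Sham vs. WT-Sham.

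After tFCI, the genotypes differed in 3 of the 8 genes, all higher in miKO-tFCI than in WT-tFCI, where 4.08% of all tested genes were higher and 4.71% lower. They were F13a1 at 1.93 (SE 0.53, adjusted p = 0.0321), Cd163 at 1.80 (SE 0.53, adjusted p = 0.0445) and Folr2 at 1.22 (SE 0.18, adjusted p = 0.00079). Pf4, at 1.04 (adjusted p = 0.0588), and Stab1, at 0.79 (adjusted p = 0.0556), were close to the threshold. Lyve1 was at 1.63 (SE 0.67, adjusted p = 0.139) and Mrc1 at 1.04 (SE 0.50, adjusted p = 0.205), both with wide errors, and Cbr2 at 0.13 (SE 0.40, adjusted p = 0.873). On CPM, F13a1, Pf4 and Folr2 were higher in every miKO-tFCI library, 3 of 8 genes against 9.58% of all tested genes, and with the batch difference removed 5 were (with Cd163 and Stab1), against 17.2%.

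These values rest on miKO-tFCI replicates 2 and 3 for part of the genes. In batch 1, with 1 library in each group, miKO-tFCI and WT-tFCI differed by -0.07 for Mrc1, 0.14 for Lyve1 and -0.28 for Cbr2 on the log2 scale, but by 1.31 for Pf4, 1.28 for Cd163, 1.11 for F13a1 and 0.90 for Folr2. In batch 2 all 8 were above 0, from 0.28 for Cbr2 to 2.27 for F13a1. The number of calls was 1 without WT-tFCI replicate 2, without WT-tFCI replicate 3 or without miKO-tFCI replicate 3, and 5 without WT-Sham replicate 1, miKO-Sham replicate 1 or miKO-Sham replicate 3. The calls higher over all tested genes moved as well, from 671 of 16451 with all 12 libraries. They were 234 of 17245, 212 of 17267 and 348 of 17242 where 1 member was called. Where 5 were called, they were 823 of 17196, 851 of 17260 and 733 of 17283. Folr2 was called in all 20 alternatives, F13a1 in 15 and Cd163 in 12.

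miKO-tFCI replicate 1 differed from the mean log2 CPM of the other 2 libraries of its group by -3.31 for Lyve1, -3.11 for Mrc1 and -2.73 for Cd163, and by 0.70 for Pf4. In it all 11 monocyte markers were higher than in replicates 2 and 3, by a median of 1.47, as were 11 of 12 endothelial markers, by 1.30, and 8 of 10 fibroblast and mural markers, by 1.22. The fibroblast and mural markers summed to 2131 CPM in this library and to 625 and 740 CPM in the others, and the 15 microglia markers to 19281 CPM against 24395 and 27305. Their part in the levels of the 8 genes was not tested. Without this library, the number of calls in miKO-tFCI vs. WT-tFCI was 4, with Stab1 (1.06, adjusted p = 0.00485) in addition to Folr2, F13a1 and Cd163. Over all tested genes 494 of 16859 were then higher, against 671 of 16451 with it.

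The effect of tFCI differed between the genotypes for 1 of the 8 genes. Folr2 had an interaction of genotype and surgery of -1.43 (SE 0.27, adjusted p = 0.00868), which is the difference between 0.84 in miKO and 2.27 in WT mice. Over all tested genes, 1.25% had a positive and 2.57% a negative interaction by the same call. The within-batch values were -1.80 and -1.18. Pf4, Cd163, Lyve1, F13a1 and Mrc1 had interactions between 1.19 and 1.74, none of which passed (adjusted p 0.078 for Pf4 and 0.26 to 0.475 for the others). Without miKO-Sham replicate 3, the interaction was 2.68 for F13a1 (adjusted p = 0.0116) and 2.42 for Pf4 (adjusted p = 0.000463), and both were called, with Folr2 at -1.38 (adjusted p = 0.0159). Over all tested genes 299 of 17283 were then higher and 584 lower. Replicate 3 was set apart partly by its high values of F13a1 and Pf4, and the 2 libraries left may be 1 sample. The calls gained are therefore no separate support for an interaction. Without replicate 2 Folr2 was the only one of the 8 genes called, at -1.63 (adjusted p = 0.00303), where 183 of 17249 tested genes were higher and 339 lower.

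The 8 genes did not keep a fixed ratio to each other. Divided by the counts of Mrc1 in the same library, Cd163 ranged from 0.150 to 0.402, a 2.68-fold range, and Lyve1 from 0.111 to 0.359, a 3.23-fold range, over libraries in which Mrc1 itself ran from 17.4 to 162 CPM. Cbr2 ranged 5.82-fold, Stab1 11.4-fold, F13a1 11.7-fold, Folr2 17.8-fold and Pf4 20.9-fold. Pf4 reached 7.06 counts per count of Mrc1 in miKO-tFCI replicate 1 and was lowest, at 0.339, in miKO-Sham replicate 3. Stab1 reached 90.2 in miKO-Sham replicate 2 and was at 7.90 in miKO-tFCI replicate 3.

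**Figure D4:**
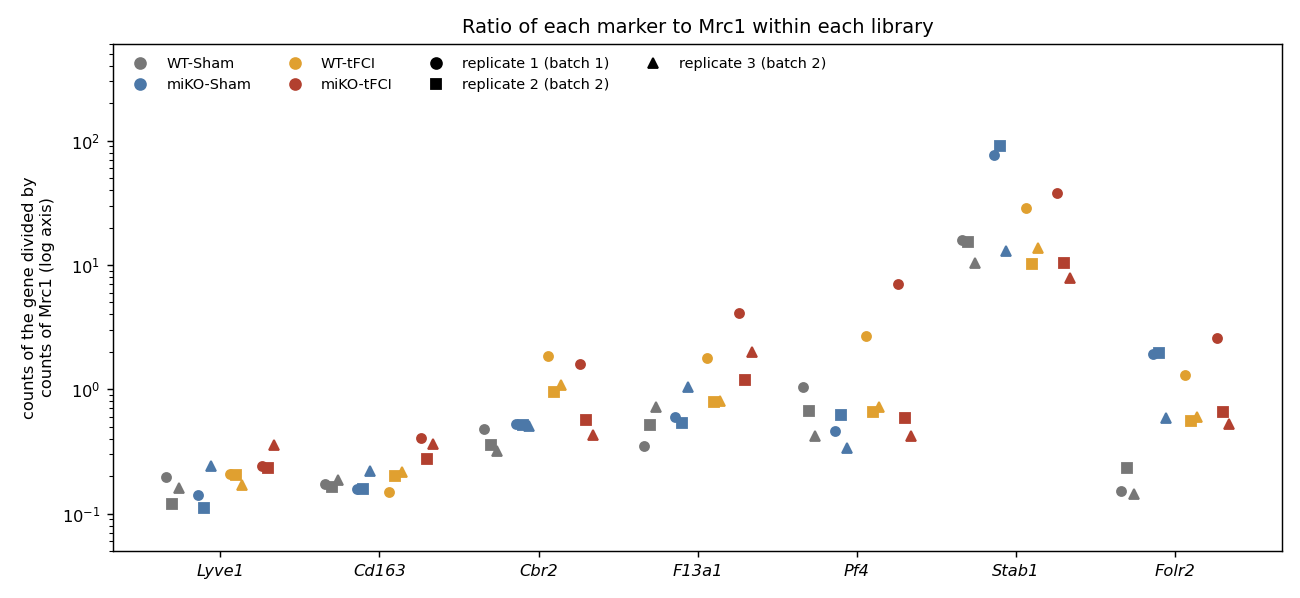
Counts of 7 genes divided by the counts of Mrc1 in the same library (log axis), with color for the group and marker shape for the replicate and its batch. Lyve1 and Cd163 stay within 3.23-fold and 2.68-fold, whereas Pf4, Stab1 and Folr2 vary by 20.9-fold, 11.4-fold and 17.8-fold.

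Likeness of pattern was measured as the root mean square difference of centered log2 CPM over the 12 libraries, among 7835 genes whose group means spanned at least 1 on that scale. Of all these genes, the nearest to Lyve1 and Cd163 were each other, at 0.31, followed by Mrc1, and the nearest to Mrc1 were Lyve1 and Cd163, both at 0.43. Outside the 8 genes, F13a1 was nearest to the chemokine receptor Ccr1 (0.53) and to Gm30489 (0.63), its overlapping antisense gene. Pf4 was nearest to Cemip2 (0.36), a cell surface hyaluronidase, and to 1810055G02Rik (0.38), and Cbr2 to Oas2 (0.41), an interferon-induced enzyme, and Gm10156 (0.42). Stab1 was nearest to the lysosomal transporter Atp13a2 (0.12) and to Grtp1 (0.19). Folr2 was nearest to Gm10602 (0.26), with which it shares exonic bases, and to the lysosomal protease Ctsb (0.33). Stab1 and Folr2 lay 0.92 apart, farther than Lyve1 and Cd163. The points are 12 libraries that share batches and groups, and no test was made.

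Pf4 is also a defining product of platelets. The 12 other platelet markers summed to 32.0 to 56.9 CPM in WT-Sham, 13.2 to 16.5 in miKO-Sham, 16.4 to 20.6 in WT-tFCI and 8.03 to 11.6 in miKO-tFCI, so that the group with the most Pf4 had the least of them. Gp9, a subunit of the von Willebrand factor receptor and the most abundant of the list, was at 49.8, 31.1 and 25.4 CPM (414, 278 and 248 counts) in WT-Sham, 5.14, 5.97 and 5.38 in miKO-Sham, 11.6, 10.3 and 11.9 in WT-tFCI, and 4.75, 4.02 and 1.98 in miKO-tFCI. Gp9 and Pf4 were thus both highest in replicate 1 of WT-Sham and of miKO-tFCI, but Gp9 was called higher in no comparison between groups. It was lower in miKO-Sham vs. WT-Sham (-2.64, and -2.68 without miKO-Sham replicate 3), in miKO-tFCI vs. WT-tFCI (-1.67) and in WT-tFCI vs. WT-Sham (-1.61). Clec1b, a platelet receptor for podoplanin, was at 0.896 to 2.40 CPM in WT-Sham, 5.38 to 6.66 in miKO-Sham, 1.44 to 2.68 in WT-tFCI and 1.14 to 3.27 in miKO-tFCI, and was named after its values were seen. Itga2b, a platelet integrin of the same list, had only 0 to 24 counts in a library. Its mean was 0.573 CPM in WT-Sham, 0.046 in miKO-Sham, 1.63 in WT-tFCI and 1.74 in miKO-tFCI. Its group means thus stood in the same order as those of Pf4, unlike those of Gp9 and Clec1b. Like Pf4, it was highest in replicate 1 of WT-Sham and of both tFCI groups, and it was also named after its values were seen. Of 5 platelet markers tested, 0 were called higher and 1 lower in each of the comparisons WT-tFCI vs. WT-Sham and miKO-tFCI vs. WT-tFCI, 1 and 1 in miKO-tFCI vs. miKO-Sham, and 1 and 3 in miKO-Sham vs. WT-Sham (1 and 2 without miKO-Sham replicate 3). The part of platelets in the level of Pf4 was not tested.

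The 27 tested genes of a further list of border-associated macrophage markers had calls in both directions. In WT-tFCI vs. WT-Sham, 12 were called higher and 4 lower. In miKO-tFCI vs. miKO-Sham there were 15 and 4, in miKO-Sham vs. WT-Sham 8 and 2, in miKO-tFCI vs. WT-tFCI 8 and 1, and in the interaction 3 and 1. The shares of all tested genes were 20.9% and 11.7% in WT and 21.9% and 13.9% in miKO mice after tFCI. They were 8.58% and 6.8% between the Sham groups, 4.08% and 4.71% between the tFCI groups, and 1.25% and 2.57% in the interaction. These shares apply to the counts of the other lists as well. Leaving out miKO-Sham replicate 3 gave 18 and 4 in miKO mice after tFCI, 6 and 5 between the Sham groups and 5 and 1 in the interaction. Of all 17283 genes then tested, 3551 and 2186, 1470 and 1109, and 299 and 584 were called, in that order. The calls lost between the Sham groups were Cd38 (1.93 with all libraries, 0.46 without) and Fcna (2.56 and 1.08), and those gained, all lower, were Clec10a, Ms4a6c and Tgfbi, at -1.85, -0.93 and -1.08. Wfdc17, a secreted inhibitor of activation, was called higher in all 4 comparisons between groups, by 3.94, 2.75, 2.38 and 1.19 in that order. Dab2, an adaptor of clathrin-mediated uptake, was higher after tFCI in WT (2.50) and in miKO (2.54), as were Ms4a6c (3.10 and 3.57) and the matrix protein Tgfbi (2.18 and 2.80). Against these, the iron exporter Slc40a1 was lower after tFCI (-1.29 in WT and -1.53 in miKO) and higher in miKO-Sham than in WT-Sham (0.90). Nrp1 was lower in miKO-Sham (-1.88) and had an interaction of 1.36 (adjusted p = 0.00266). The calls of Wfdc17, Slc40a1 and Nrp1 in miKO-Sham vs. WT-Sham were kept without miKO-Sham replicate 3, at 2.41, 1.01 and -2.05.

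Of 16 tested regulators of macrophage and microglia identity, most calls after tFCI were lower. After tFCI 3 were higher and 7 lower in WT mice, and 3 were higher and 12 lower in miKO mice. In miKO-Sham vs. WT-Sham 2 were higher and 1 lower, in miKO-tFCI vs. WT-tFCI 0 and 4, and none had an interaction. Maf, the factor whose letters were searched above, was lower after tFCI in WT (-1.09) and miKO (-1.65) and lower in miKO-tFCI than in WT-tFCI (-0.81). Spi1, which encodes PU.1, was lower after tFCI in miKO mice (-0.70) and was at -0.15 (adjusted p = 0.373) in WT. The microglial factor Sall1 was lower in 3 comparisons (-1.19 and -1.52 after tFCI, -0.78 between genotypes after tFCI). Id3, Nr1h3 and Cebpb were the 3 called higher after tFCI in both genotypes, Id3 by 3.25 and 3.42. Id3 was at 88.9, 26.3 and 23.8 CPM in WT-tFCI replicates 1 to 3 and at 206, 48.3 and 41.0 in miKO-tFCI. Nr1h3 was also highest in replicate 1 of both tFCI groups, the libraries with raised endothelial markers. The part of such cells in these 2 regulators was not tested. The 15 microglia markers were called lower in 11 cases in WT-tFCI vs. WT-Sham, in 15 in miKO-tFCI vs. miKO-Sham, in 7 in miKO-Sham vs. WT-Sham and in 9 in miKO-tFCI vs. WT-tFCI. Among the 15 is Cx3cr1, with means of 3862 CPM in WT-Sham, 1196 in miKO-Sham, 1527 in WT-tFCI and 438 in miKO-tFCI. As CreER replaced a Cx3cr1 allele in miKO mice, its difference between genotypes cannot be told apart from the driver.

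Tested relatives of the 8 genes, by domain family or substrate, numbered 11. Mrc2, a collagen receptor of the mannose receptor family, was lower in miKO-Sham (-2.68), higher after tFCI in miKO mice (2.09) and had an interaction of 1.76 (adjusted p = 0.0297), where Mrc1 was not called in any of these. Cd44, the main hyaluronan receptor and a relative of Lyve1, was higher in all 4 comparisons (5.23 in WT-tFCI vs. WT-Sham, 3.13 in miKO-tFCI vs. miKO-Sham, 3.86 in miKO-Sham vs. WT-Sham and 1.76 in miKO-tFCI vs. WT-tFCI). Cd5l, of the scavenger receptor family of Cd163, was higher after tFCI by 6.52 and 3.83 but lower in miKO-tFCI than in WT-tFCI (-0.87), where Cd163 was higher. The transglutaminase Tgm2, of the family of F13a1, was higher after tFCI (1.58 and 2.2) and was not called between genotypes. Tgm1 had an interaction of 2.74 (adjusted p = 0.0139), and the reductases Cbr1 and Cbr3 were not called in any comparison. Folr1, the other folate receptor, had log2 fold changes of 1.88, 0.98, 2.39 and 1.49 without passing the test. Over the list, 6 were higher and 0 lower after tFCI in WT mice, 7 and 0 in miKO mice, and 2 and 2 in each of the comparisons between genotypes and in the interaction. Without miKO-Sham replicate 3, Mrc2 was at -3.30, Cd44 at 3.98 and Tgm1 at -1.78 between the Sham groups, and the interactions of Mrc2 and Tgm1 were 2.37 and 3.14, all still called.

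Of 10 tested genes for the handling of haem and iron, which Cd163 feeds, 3 were higher and 1 lower after tFCI in WT mice and 4 and 2 in miKO mice. Of all tested genes, 20.9% were higher and 11.7% lower in WT and 21.9% and 13.9% in miKO mice. With 10 genes, the counts in WT mice are near these shares. Between the genotypes 5 were higher and 0 lower in miKO-Sham, against 8.58% and 6.8% of all tested genes. In miKO-tFCI 4 were higher and 0 lower, against 4.08% and 4.71%. The ferritin chains Fth1 and Ftl1 were higher in miKO-Sham vs. WT-Sham, by 1.93 and 0.81 (2.15 and 0.92 without miKO-Sham replicate 3). Of 11 genes of folate transport and metabolism, 7 were higher and 2 lower in WT-tFCI vs. WT-Sham, 4 and 0 both in miKO-tFCI vs. miKO-Sham and in the comparison of the Sham groups, and 1 and 0 in miKO-tFCI vs. WT-tFCI. The same shares of all tested genes apply to them.

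Markers of other cells that a sorted brain sample could hold moved with tFCI as well. All 10 tested fibroblast and mural markers were called higher after tFCI in both genotypes, Dcn by 7.45 in WT and 7.23 in miKO, and 9 and 11 of 12 endothelial markers were. Their sums in the 12 libraries were 4.59 to 2131 CPM for fibroblast and mural markers and 18.4 to 385 CPM for endothelial markers. Of 11 monocyte markers, 5 were higher after tFCI in WT and 8 in miKO, and 4 in miKO-tFCI vs. WT-tFCI, with none lower (5 higher and 1 lower in the last without miKO-Sham replicate 3), and their sum ran from 15.5 to 1084 CPM. Neutrophil markers differed between the genotypes after tFCI, 8 of 11 being higher and 0 lower in miKO-tFCI, the comparison in which F13a1, Cd163 and Folr2 were called. Their sum ran from 520 to 609 CPM over the WT-tFCI libraries, from 1112 to 1375 over those of miKO-tFCI, from 639 to 1409 over those of WT-Sham and from 1125 to 1166 over those of miKO-Sham. S100a8, a calcium-binding protein of neutrophils, was at 264, 333 and 298 CPM in miKO-tFCI, where the WT-tFCI libraries had 54.9, 63.2 and 64.8, a log2 fold change of 2.30 (adjusted p = 0.0422). Csf3r, the marker of this list with the highest mean CPM and a large part of its sums, went the other way. It was at 231, 269 and 283 CPM in miKO-tFCI and at 342, 338 and 375 in WT-tFCI. In the same comparison 3 of 6 astrocyte markers were called higher, Gfap by 1.60 (adjusted p = 0.0017), and 1 lower. Slc1a3, the astrocyte marker with the highest mean CPM, was at 86.1, 53.4 and 61.7 CPM in miKO-tFCI. In WT-tFCI it was at 99.9, 120 and 114 CPM. S100a8 and Gfap were named after their values were seen. Lyve1 and Stab1 are also made by some endothelial cells, and the part of these other cells in the levels of the 8 genes was not tested.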

How the data were processed

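RNA of sorted CD45int CD11b+ cells was sequenced paired-end after SMART-Seq v4 amplification. The sorter is a Cytek Aurora in the paper and a CytoFLEX SRT in the labels. The submitters' processing notes list FastQC 0.11.9, Trim Galore, HISAT2 2.2.1, SAMtools and HTSeq 1.99.2 with mm10/GRCm38.p6, and the strand setting is not given in the sources used here. The values deposited by the authors are raw counts per gene, 1 file per library. Lines that name no gene, 61.5% to 69.3% of all counted reads, were left out.

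Symbols, exons and coordinates came from GENCODE M21 (GRCm38). The fit used edgeR 4.0.16 (R 4.3.3), in which filterByExpr chose the genes, TMM scaled the libraries (factors 0.864 to 1.11) and a quasi-likelihood model took group and batch as terms over 12 libraries. Log2 CPM used a prior count of 2. SE is the absolute log2 fold change over the square root of F. These scripts were tested on simulated counts. Comparisons within tFCI, within Sham and within a genotype share samples, so their values stand side by side without a test of overlap. Nothing in the labels says that replicates came from separate mice beyond the pooled hemispheres.

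The 8 genes and the lists (other border-associated macrophage genes, relatives, regulators, haem and iron, folate, microglia, monocyte, neutrophil, platelet, astrocyte, endothelial, fibroblast and mural) were chosen with earlier results of these data known. Besides the 8, the genes to be named were the 8 other macrophage genes and 2 genes per further list with the highest mean CPM, the relatives and the regulators, and not all of these are printed. The handling of Stab1 and Folr2 apart from the other 6 was chosen after their values were seen. Alternatives were DESeq2 1.42.0, RLE factors, other filters, no batch term, a replicate block, only the groups compared, batch 2 alone, plain CPM and each replicate left out.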

Additional observations from a re-analysis of the deposited data

Results flagged for a closer look

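Folr2 was flagged because its response to tFCI differed between the genotypes, with an interaction of -1.43 on the log2 scale (SE 0.27, adjusted p = 0.00868, edgeR). Folr2 rose in both genotypes, by 2.27 in WT and 0.84 in miKO, from 6.43 ± 1.07 CPM in WT-Sham and 39.9 ± 7.13 CPM in miKO-Sham. After tFCI it reached 31.3 ± 6.58 CPM in WT and 74.4 ± 26.0 CPM in miKO mice (SD, n = 3). The interaction was called in 18 of 19 alternatives, between -1.63 and -1.24, and not without the batch term (adjusted p = 0.0929).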

How the results depend on the processing

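The number of genes called higher in miKO-Sham vs. WT-Sham (2) and in miKO-tFCI vs. miKO-Sham (6) stayed within 1.5 times under every alternative. Others moved. In WT-tFCI vs. WT-Sham, 2 calls became 4 with no filter on low counts, with only the groups compared and in batch 2 alone (leaving out 1 replicate, 2 to 4). Over all tested genes, 3784 of 34185, 3022 of 14771 and 2921 of 16219 were then higher, against 3440 of 16451 in the analysis above. In miKO-tFCI vs. WT-tFCI, 3 became 7 with no filter and with only the groups compared, 5 with at least 10 counts in every library and 1 with no batch term (leaving out 1 replicate, 1 to 5). Over all tested genes, 1200 of 34185 were higher with no filter and 1542 of 15478 with only the groups compared. With at least 10 counts it was 484 of 11607, with no batch term 213 of 16451, and in the analysis above 671 of 16451. Higher interactions numbered 5 and lower ones 2 with no filter, against 0 and 1, and with no batch term 0 were lower (leaving out 1 replicate, 0 to 2 higher). Over all tested genes there were 458 higher and 814 lower of 34185 with no filter, against 206 and 423 of 16451. With no batch term 218 of 16451 were lower. Calls lower in miKO-Sham vs. WT-Sham became 1 with no filter (leaving out 1 replicate, 0 to 1). Over all tested genes these calls were 1295 of 34185 with no filter, against 1119 of 16451. On plain CPM, 1 in place of 5 genes was higher in every miKO-tFCI library than in miKO-Sham, and 3 in place of 5 than in WT-tFCI. The interaction was not run with only the groups compared, since it uses all 4.

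The values that changed sign were not called with all 12 libraries, but not all lay near 0 (F13a1 went from 0.69 to -0.69). In WT-tFCI vs. WT-Sham, Mrc1 was at -0.0110 with DESeq2, and leaving out 1 replicate gave -0.39 to 0.76 for Mrc1, -0.31 to 1.27 for Lyve1 and -0.25 to 0.93 for Cd163. In miKO-Sham vs. WT-Sham, Mrc1 was at 0.0888 with no batch term and 0.39 in batch 2 alone, and Lyve1 at -0.0390 and Cd163 at -0.0813 with DESeq2. Leaving out 1 replicate there gave -0.79 to 0.62 for Mrc1, -1.20 to 1.10 for Lyve1, -0.95 to 0.77 for Cd163, -0.49 to 0.96 for Cbr2 and -0.69 to 1.19 for F13a1. Cbr2 ran from -0.0440 to 0.35 in miKO-tFCI vs. WT-tFCI and from -0.88 to 0.64 in the interaction. Stab1 was at 0.0414 in miKO-tFCI vs. miKO-Sham in batch 2 alone. The causes were not tested.

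Replicate numbers gave no sign of pairing beyond batch for replicates 2 and 3. For replicate 1, pairing cannot be told apart from batch 1. Correlations of deviations ran from -0.06 to 0.666 over 18 same-numbered pairs, 11 above 0.1, and from -0.20 to 0.0855 over the 12 pairs of replicates 2 and 3 with the batch removed. With the replicate block in place of batch, 3 genes were called higher after tFCI in WT and 7 in miKO mice, 2 in miKO-Sham vs. WT-Sham and 3 in miKO-tFCI vs. WT-tFCI, and Lyve1 (-0.0440) and Cd163 (-0.0770) changed sign in miKO-Sham vs. WT-Sham. Of all 16451 tested genes, 3429, 3599, 1382 and 635 were higher in these comparisons, in that order. The depth limits Lyve1 and Cd163 most, with 14 and 20 counts in their lowest libraries.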
